A study of Mus musculus with 30 samples.

Results

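The 10 genes described here are transcripts by which mouse Kupffer cells, the macrophages that live in the liver sinusoids, are usually recognised: C1qa, C1qb, C1qc, Cd5l, Csf1r, Clec4f, Vsig4, Marco, Adgre1 and Timd4. They were taken by name from a list of marker genes, and all 10 were found among the 29117 genes of the deposited table, each under a single identifier. All 10 were also among the 13589 genes that passed the filter on low values, a level of at least 1 FPKM in 3 libraries or more, where FPKM is a fragment count normalized for transcript length and for library size. None of them was below 1 FPKM in any of the 30 libraries, so the filter did not select among them.

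Liver RNA was sequenced from the left lobe of C57BL/6J mice, an inbred laboratory strain, at 10 weeks of age. Mice of both arms had been fasted for 12 to 16 h before an intraperitoneal injection. The insulin arm received human insulin at 0.7 U/kg, and the control arm received phosphate-buffered saline (PBS). Each arm has 5 sampling points within 4 h and 3 libraries at each point, which gives 15 insulin and 15 PBS libraries. Points carry numbers from 1 to 5 in the labels, without minutes, and those numbers serve as names here. No uninjected group was analysed here. The libraries were made from poly(A) RNA of whole tissue, in which fewer cells of a type and less RNA per cell cannot be told apart.

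Kupffer cells descend largely from fetal precursors, renew themselves locally and depend on signalling through the receptor encoded by Csf1r. They take up particles, complement-coated microbes and dying cells from portal blood, and they release soluble proteins of innate immunity. The transcription factors PU.1, encoded by Spi1, and the liver X receptor alpha, encoded by Nr1h3, together with Id3, are part of the programme that maintains them. C1qa, C1qb and C1qc encode the A, B and C chains of C1q, the recognition part of the first complement component. Cd5l encodes a secreted scavenger-receptor protein, also called AIM, that circulates in blood. Among the surface proteins, Clec4f is a C-type lectin of rodent Kupffer cells, Vsig4 a complement receptor that binds C3 fragments, Marco a scavenger receptor, Adgre1 the F4/80 antigen, and Timd4 a receptor for phosphatidylserine on dying cells.

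Levels of the 10 genes covered a wide range of liver expression. On the FPKM scale, which is per transcript length, Cd5l averaged 29.9 FPKM over all 30 libraries and lay at percentile 87.3 of the genes tested. Clec4f followed with 28.6 FPKM, C1qa with 23.6, C1qb with 21.4, Vsig4 with 16.2 and C1qc with 15.8 FPKM. Csf1r averaged 8.72, Adgre1 5.03, Marco 4.63 and Timd4 2.72 FPKM, the last at percentile 34.5. Neighbours in this order were close, and the ranges over libraries of Cd5l and Clec4f, of C1qa and C1qb, and of Adgre1 and Marco overlapped. The estimated depth was 20.0 to 40.8 M fragments per library. At that depth a C1qa value rested on about 380 to 2269 fragments and a Timd4 value on about 59.3 to 548 fragments, so Timd4 is the least precise of the 4 members that have a single annotated transcript.

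The 3 C1q genes lie side by side on the minus strand of chromosome 4 (GRCm38). C1qb spans chr4:136880129-136886187, C1qc chr4:136889804-136893065 and C1qa chr4:136895917-136898803. The other members are on 7 different chromosomes. For 7 of the 10 members a promoter was found in the RefSeq table (GRCm38.p6), and its 250 bases before the annotated start were searched on both strands for short motifs. GAGGAA, a core of PU.1 sites, was present before C1qb, C1qc, Cd5l, Vsig4 and Marco, in 5 of 7 members, against 23.4% of all 32536 promoters. TGCTGA, a part of MAF recognition elements, was present before C1qb, Cd5l, Clec4f and Timd4, in 4 of 7 members, against 16.1% of all promoters. TGACG, a core of cyclic AMP response elements, was present in 1 of 7, before C1qb, against 17.9%. GTAAACA, a core of FOXO sites, was present in 0 of 7, against 3.17%. A match is a description of these letters, and binding was not measured. The windows before C1qb and Cd5l, whose averaged levels were lower in insulin livers, and before Vsig4, whose level did not pass the test, are printed 5′ to 3′ on the strand of the gene, with GAGGAA and TGCTGA, read on either strand, in capitals.
C1qb (chr4:136886201-136886450, minus strand): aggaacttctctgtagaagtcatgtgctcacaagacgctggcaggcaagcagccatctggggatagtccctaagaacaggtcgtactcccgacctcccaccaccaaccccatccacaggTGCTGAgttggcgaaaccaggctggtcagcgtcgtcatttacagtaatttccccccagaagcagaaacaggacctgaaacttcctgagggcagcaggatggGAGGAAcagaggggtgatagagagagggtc
Cd5l (chr3:87357631-87357880, plus strand): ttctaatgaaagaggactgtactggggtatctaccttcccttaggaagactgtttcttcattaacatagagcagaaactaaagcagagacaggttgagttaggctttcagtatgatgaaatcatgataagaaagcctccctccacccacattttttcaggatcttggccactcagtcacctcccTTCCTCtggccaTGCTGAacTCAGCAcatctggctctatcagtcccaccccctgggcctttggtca
Vsig4 (chrX:96293439-96293688, minus strand): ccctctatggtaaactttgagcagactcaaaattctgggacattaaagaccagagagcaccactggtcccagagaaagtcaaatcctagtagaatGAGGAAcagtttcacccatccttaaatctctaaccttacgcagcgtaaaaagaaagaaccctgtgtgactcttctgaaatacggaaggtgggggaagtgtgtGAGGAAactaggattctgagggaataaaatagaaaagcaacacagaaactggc
C1qb and Cd5l each hold both motifs in these bases, and Vsig4 holds GAGGAA at 2 places and no TGCTGA. Of the members not printed, Clec4f passed the averaged test and holds TGCTGA, and C1qc passed and holds none. Timd4 did not pass and holds TGCTGA at 2 places, and Marco did not pass and holds none. Whether a motif goes with the difference was not tested.

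A single library has to be described before the comparisons. In PBS replicate 1 of point 4, each of the 10 genes reached its highest level of all 30 libraries, whereas 5.24% of all genes tested had their highest level there. C1qa was at 53.5 FPKM in it, and the next highest library, of the PBS arm, held 31.0 FPKM. Cd5l was at 76.2 FPKM against a next highest of 40.7 FPKM, and Marco at 20.3 against 7.86 FPKM. Relative to the mean of the other 2 PBS libraries of point 4, the ratio of FPKM ran from 1.38 for Clec4f to 5.11 for Marco. The summed level of the 10 genes was 343.4 FPKM in this library and 130.7 to 197.3 FPKM in the other 14 PBS libraries. Of 34 other macrophage genes tested, 25 were also highest there, as were 7 of 10 pan-leukocyte genes, 2 of 15 sinusoidal endothelial markers, 0 of 14 stellate cell markers and 0 of 10 hepatocyte markers. Calls that rest on this library are therefore given with and without it, and the fits without it were chosen after its values were seen. Medians and ranges over the PBS arm include it.

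**Figure D1:**
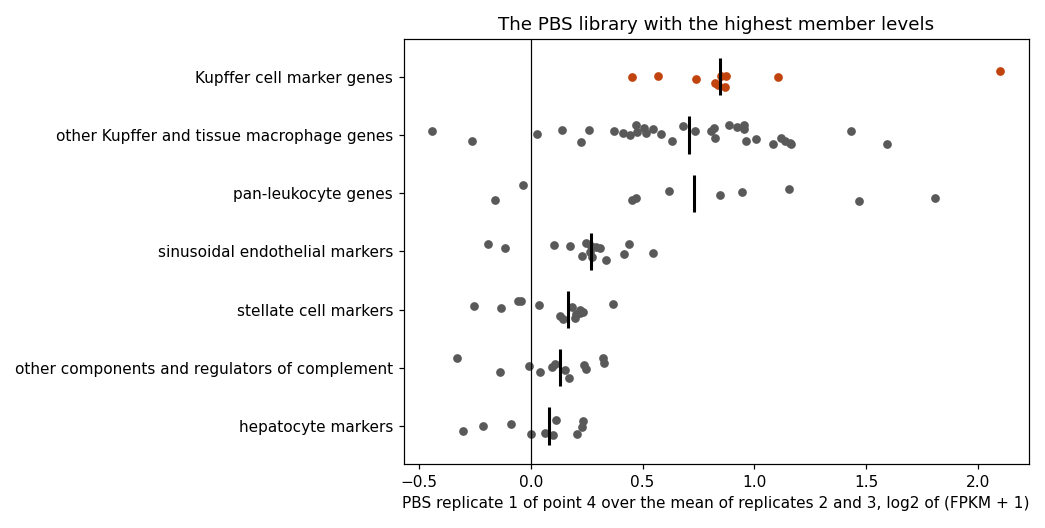
Each point is a gene: the x axis gives log2 of (FPKM + 1) in PBS replicate 1 of point 4 over (FPKM + 1) for the mean of PBS replicates 2 and 3, by gene list, with a vertical bar at the list's median. The Kupffer cell genes (median 0.84) and the other macrophage genes (0.71) lie to the right, the hepatocyte markers (0.08) near 0.

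Insulin was compared with PBS in a single limma model of log2(FPKM + 1) that fitted all 10 group means together, and adjusted p-values are Benjamini-Hochberg values over all 13589 genes with a threshold of 0.05. Shares of all genes called are at that adjusted threshold. No share of all genes before adjustment was computed, so counts of members before adjustment stand without one. Averaged over the 5 points, 6 of the 10 genes were lower in insulin livers and 0 were higher: C1qa, C1qb, C1qc, Cd5l, Csf1r and Clec4f. Among all genes tested, 37.6% were lower and 7.89% were higher in the same comparison. The median difference was -0.32 on the log2(FPKM + 1) scale for the 10 genes and -0.13 for all genes. The deposited values thus carry a general downward shift in insulin libraries. With median-ratio scaling, which removes it, the median was -0.16 for the 10 genes and -0.01 for all genes, 4 of the 10 remained lower (the 3 C1q genes and Csf1r), and the all-gene calls were 2750 higher and 2739 lower in place of 1072 higher and 5106 lower.

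The 3 C1q genes had the largest averaged differences among the 10. C1qa ranged from 14.4 to 24.3 FPKM with a median of 19.3 in the 15 insulin libraries, against 20.0 to 53.5 with a median of 26.6 FPKM in the 15 PBS libraries. The arms overlapped between 20.0 and 24.3 FPKM. The difference of C1qa was -0.46 ± 0.08 (SE; limma adjusted p = 0.000121). C1qb ranged from 11.4 to 21.9 FPKM (median 17.6) in insulin and from 17.6 to 49.1 FPKM (median 26.4) in PBS livers, a difference of -0.51 ± 0.09 (adjusted p = 0.000126, limma). C1qc ranged from 7.48 to 16.7 FPKM (median 13.5) in insulin and from 13.3 to 36.6 FPKM (median 17.9) in PBS livers, a difference of -0.49 ± 0.10 (adjusted p = 0.000261, limma). All 3 chains of the same protein were thus lower by similar amounts.

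Cd5l ranged from 14.6 to 36.0 FPKM (median 25.2) in insulin and from 21.7 to 76.2 FPKM (median 32.3) in PBS livers, a difference of -0.38 ± 0.10 (limma adjusted p = 0.00271). Csf1r, the receptor for the growth factors CSF1 and IL-34, ranged from 5.64 to 9.41 FPKM (median 7.74) in insulin and from 7.50 to 19.1 FPKM (median 9.46) in PBS livers, a difference of -0.38 ± 0.08 (adjusted p = 0.000455, limma). The arms of both genes overlapped over a large part of their ranges. Clec4f ranged from 18.3 to 35.0 FPKM (median 26.3) in insulin and from 22.7 to 45.6 FPKM (median 29.0) in PBS livers, a difference of -0.25 ± 0.07 (adjusted p = 0.00675, limma). Clec4f and Cd5l were the members whose averaged call ended with median-ratio scaling (adjusted p = 0.269 and 0.0508), and Clec4f also lost it with quantile normalization (adjusted p = 0.192). The averaged call of Clec4f also ended without the libraries of insulin replicate 1, PBS replicate 1 or PBS replicate 2 (limma adjusted p = 0.0988, 0.0542 and 0.0617). Without PBS replicate 1 of point 4, all 6 genes stayed lower on average, with differences of -0.40 for C1qa, -0.46 for C1qb, -0.43 for C1qc, -0.31 for Cd5l, -0.33 for Csf1r and -0.22 for Clec4f. In that fit 4911 of all 13589 genes were lower on average and 1068 higher.

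The other 4 surface receptors did not pass the averaged test, and their intervals were of different widths. Vsig4 had a median of 14.4 FPKM (9.19 to 20.7) in insulin and 16.7 FPKM (11.5 to 26.0) in PBS livers, and the 95% interval of its difference ran from -0.26 to 0.08 (adjusted p = 0.402, limma). Adgre1 had a median of 5.01 FPKM (2.11 to 6.65) in insulin and 5.17 FPKM (2.44 to 10.8) in PBS livers, with an interval from -0.33 to 0.08 (adjusted p = 0.310, limma). Timd4 had a median of 2.53 FPKM (1.82 to 4.00) in insulin and 2.52 FPKM (1.16 to 6.18) in PBS livers, with an interval from -0.19 to 0.28 (adjusted p = 0.786, limma). On the log2(FPKM + 1) scale these intervals leave out a difference as large as the -0.46 of C1qa. The added 1 shrinks a given fold change more in low genes such as Adgre1 and Timd4, so fold changes are not compared by this. Marco had a median of 3.13 FPKM (1.21 to 7.59) in insulin and 3.99 FPKM (1.95 to 20.3) in PBS livers, and its interval of -0.60 to 0.26 is too wide to say the same (adjusted p = 0.527, limma). Whether the differences of these 4 genes are smaller than those of the 6 that passed was not tested.

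**Figure D2:**
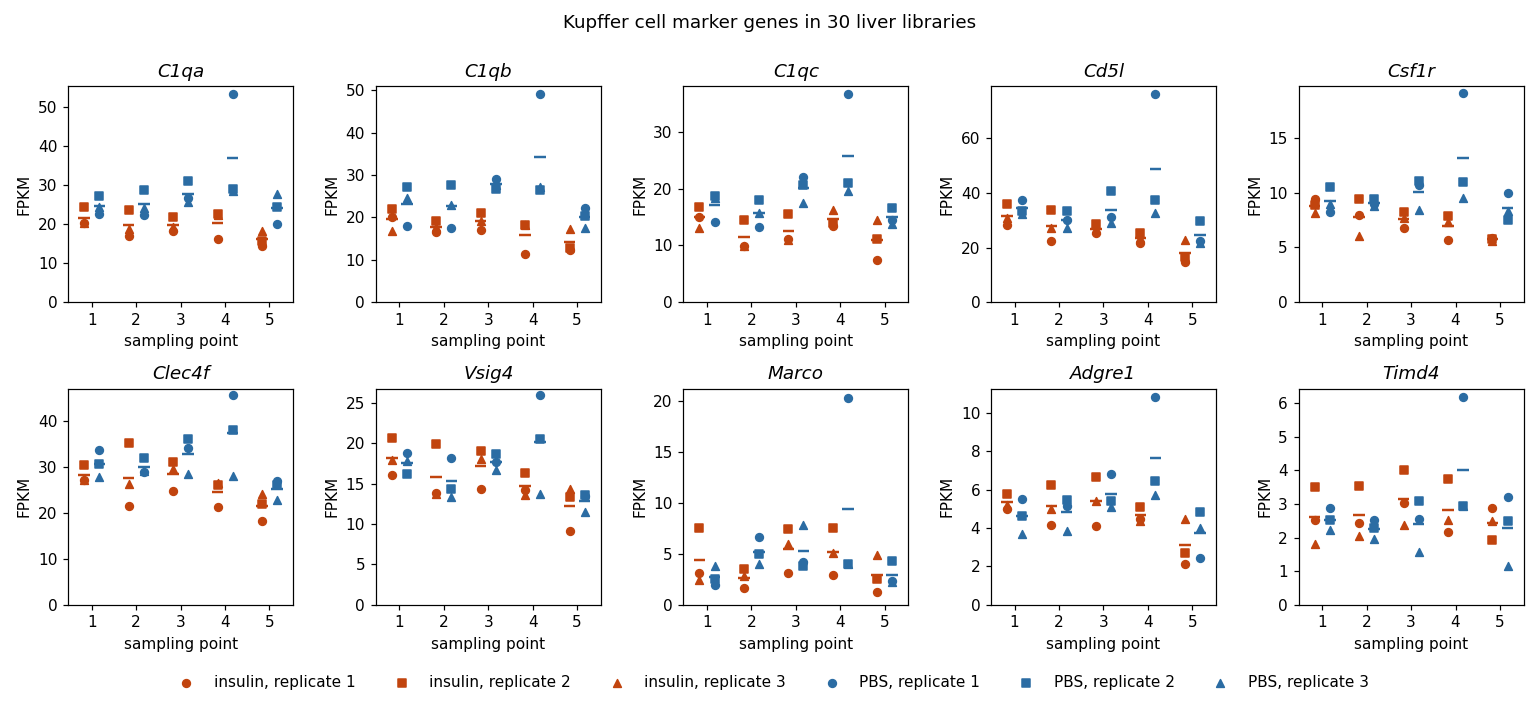
FPKM of each gene in every library by sampling point, with insulin (orange) left of PBS (blue), a symbol for each replicate number and a short line at the group mean. PBS replicate 1 of point 4 is the highest library in all 10 panels, and the insulin libraries of C1qa lie between 14.4 and 24.3 FPKM.

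At point 1 no member passed the limma test in either direction, where 0% of all genes were higher and 0.00736% lower. No member was under 0.05 before adjustment either. The libraries of the 2 arms overlapped for all 10 genes (all 3 insulin libraries lay below all 3 PBS libraries for 6.44% of all genes). C1qa had 20.2, 24.3 and 20.3 FPKM in the insulin libraries and 22.5, 27.1 and 24.3 FPKM in the PBS libraries of that point. Cd5l had 28.2, 36.0 and 30.7 FPKM with insulin and 37.5, 33.6 and 32.3 FPKM with PBS. The differences of the 10 genes ran from -0.22 for C1qb to 0.43 for Marco, with a median of -0.09 against -0.06 for all genes.

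At point 2 again no member passed in limma, against 0.618% of all genes higher and 0.736% lower, and 0 members were under 0.05 before adjustment. The median difference was -0.18 for the 10 genes and -0.12 for all genes. Marco was the only member whose insulin libraries all lay below the PBS libraries, which was so for 18.6% of all genes. It had 1.66, 3.52 and 2.79 FPKM with insulin and 6.62, 4.95 and 4.01 FPKM with PBS, a difference of -0.77 ± 0.46 that did not pass (limma adjusted p = 0.386). Adgre1, Vsig4 and Timd4 had differences between 0.04 and 0.16 at this point.

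By point 3 the insulin libraries of 5 members lay wholly below the PBS libraries, against 27.8% of all genes. Again no member passed in limma, against 2.19% of all genes higher and 7.26% lower after adjustment. Before adjustment 3 members, all lower, were under 0.05, and the share of all genes before adjustment was not computed. C1qc had 11.1, 15.5 and 10.9 FPKM with insulin and 22.1, 20.7 and 17.4 FPKM with PBS. Its difference of -0.65 ± 0.21 came nearest to the threshold (limma adjusted p = 0.0532). C1qb had 17.0, 21.1 and 19.2 FPKM with insulin and 29.0, 26.8 and 27.6 FPKM with PBS, and C1qa had 18.3, 21.9 and 19.3 FPKM with insulin and 26.6, 31.0 and 25.7 FPKM with PBS. The arms of these genes did not overlap, and their differences of -0.52 ± 0.21 and -0.46 ± 0.19 did not pass (adjusted p = 0.105 and 0.110, limma). Csf1r had 6.83, 8.25 and 7.74 FPKM with insulin and 10.7, 11.1 and 8.47 FPKM with PBS, a difference of -0.36 ± 0.18 (adjusted p = 0.188, limma).

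Point 4 had the most calls: 6 of the 10 genes were lower in insulin livers and 0 were higher, against 10.4% of all genes lower and 2.82% higher. The insulin libraries lay wholly below the PBS libraries for 7 members, against 24.3% of all genes. The median difference was -0.65 for the 10 genes and -0.14 for all genes, and with median-ratio scaling it was -0.50 for the 10 genes. With that scaling 4 members were lower, against 801 genes lower and 943 higher among all genes.

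C1qa had 16.1, 22.5 and 22.3 FPKM in the insulin libraries of point 4 and 53.5, 29.0 and 28.5 FPKM in the PBS libraries. C1qb had 11.4, 18.1 and 18.2 FPKM with insulin and 49.1, 26.4 and 27.1 FPKM with PBS. C1qc had 13.5, 14.0 and 16.3 FPKM with insulin and 36.6, 21.0 and 19.5 FPKM with PBS. No library of either arm crossed into the other for these 3 genes. The difference was -0.79 ± 0.19 for C1qa (limma adjusted p = 0.00891), -1.03 ± 0.21 for C1qb (adjusted p = 0.00324) and -0.73 ± 0.21 for C1qc (adjusted p = 0.0273).

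Cd5l had 21.8, 25.2 and 23.7 FPKM with insulin and 76.2, 37.3 and 32.5 FPKM with PBS at point 4, a difference of -0.92 ± 0.22 (limma adjusted p = 0.00944). Csf1r had 5.66, 7.87 and 7.35 FPKM with insulin and 19.1, 11.0 and 9.55 FPKM with PBS, a difference of -0.79 ± 0.18 (adjusted p = 0.00664, limma). Both genes were lower in every insulin library than in any PBS library of the point. Clec4f had 21.2, 25.9 and 26.4 FPKM with insulin and 45.6, 38.0 and 28.0 FPKM with PBS, a difference of -0.56 ± 0.16 (adjusted p = 0.0240, limma). Adgre1 also had no overlap, with 4.49, 5.12 and 4.38 FPKM with insulin and 10.8, 6.46 and 5.73 FPKM with PBS, and did not pass (difference -0.57 ± 0.22, adjusted p = 0.0873, limma). Vsig4, Marco and Timd4 overlapped between the arms, with differences of -0.39, -0.45 and -0.35 (adjusted p = 0.157, 0.543 and 0.357, limma).

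Without PBS replicate 1 of point 4, 2 of the 10 genes were lower at that point, C1qb (-0.74 ± 0.20, limma adjusted p = 0.0259) and Csf1r (-0.51 ± 0.16, adjusted p = 0.0468). Of all 13589 genes, 777 were then lower and 285 higher, in place of 1416 lower and 383 higher. The differences of the others that had passed became -0.50 for C1qa (adjusted p = 0.0614, limma), -0.45 for C1qc (0.165), -0.55 for Cd5l (0.0617) and -0.41 for Clec4f (0.128). Marco, whose level in that library was 20.3 FPKM, turned to a difference of 0.24. Without insulin replicate 1 of point 4, the library with the lowest C1qa, C1qb, Cd5l and Csf1r levels of its group, 3 members were lower, C1qb, Cd5l and Csf1r, against 455 of 13589 genes. Without insulin replicate 2 of the point, C1qc and Clec4f did not pass (adjusted p = 0.0897 and 0.0569, limma), and without PBS replicate 2 Clec4f did not (0.0596). When only the 6 libraries of the point were fitted, 0 members passed, where 55 of 13589 genes were lower and 46 higher. The smallest adjusted p was 0.102 for C1qb (limma). Before adjustment 7 members, all lower, were under 0.05 in that fit, and the share of all genes before adjustment was not computed.

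At point 5, 2 members were lower with insulin, C1qa and Csf1r, and 0 were higher, against 16.1% of all genes lower and 2.96% higher. C1qa had 14.4, 15.7 and 18.3 FPKM with insulin and 20.0, 24.4 and 27.7 FPKM with PBS, a difference of -0.54 ± 0.19 (limma adjusted p = 0.0428). Csf1r had 5.90, 5.73 and 5.64 FPKM with insulin and 10.0, 7.50 and 8.33 FPKM with PBS, a difference of -0.50 ± 0.18 that lay at the threshold (adjusted p = 0.049985, limma). Insulin and PBS libraries did not overlap for either gene, and the insulin libraries lay wholly below for 3 members in all, against 29% of all genes. C1qb, C1qc and Cd5l had differences of -0.48, -0.45 and -0.45 and did not pass (adjusted p = 0.106, 0.138 and 0.148, limma). The share of members called, 2 of 10, was near that of all genes, and both calls ended with median-ratio scaling, quantile normalization or no filter on low values. Leaving out any of the 6 libraries ended at least 1 of them.

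**Figure D3:**
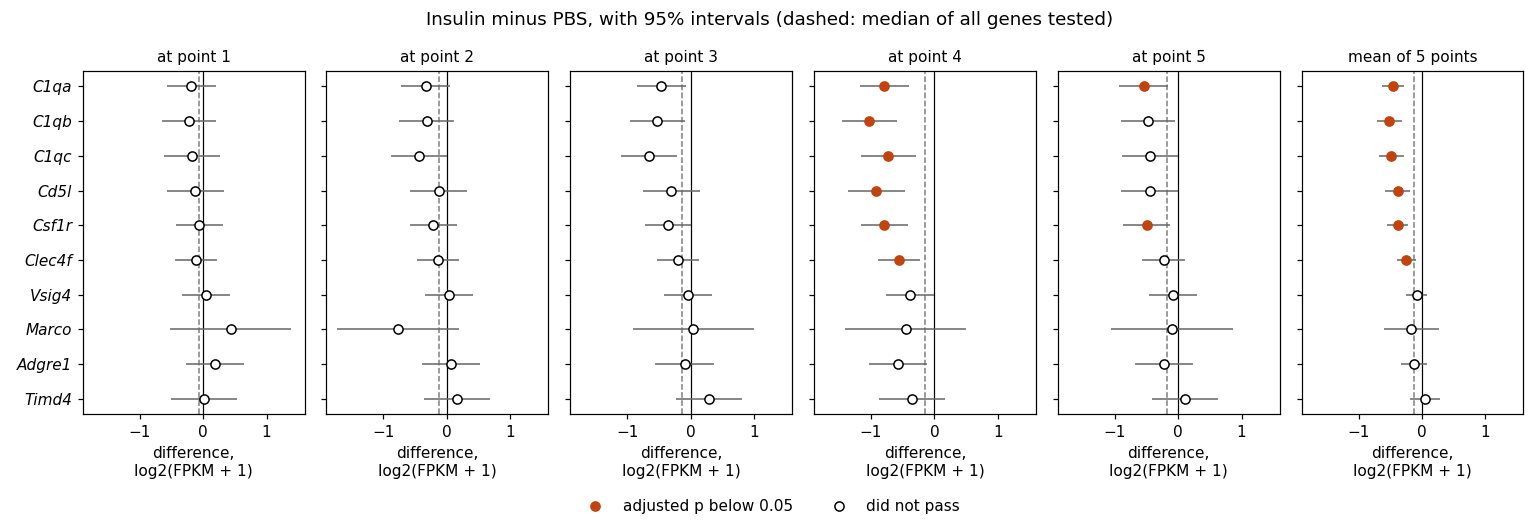
Insulin minus PBS on the log2(FPKM + 1) scale with 95% intervals for each gene, at points 1 to 5 and averaged, with filled symbols for an adjusted p below 0.05 and a dashed line at the median of all genes. The filled symbols are 6 at point 4, 2 at point 5 and 6 in the average.

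The data did not show that the insulin-minus-PBS difference depended on the point for any member. The F test of that dependence called 0 of 10 members, with 0 under 0.05 before adjustment, and 1.77% of all genes, with the smallest adjusted p among the members for Csf1r (0.496, limma). The summed FPKM of the 10 genes over points 1 to 5 averaged 155 ± 17.7, 138 ± 26.7, 146 ± 17.9, 133 ± 17.4 and 107 ± 20.3 in the insulin arm (SD, n = 3 each). In the PBS arm it averaged 167 ± 5.89, 160 ± 13.7, 183 ± 14.7, 237 ± 92.8 and 139 ± 9.69 over the same points. Point 5 held the lowest group mean of 9 members in the insulin arm and of 8 members in the PBS arm. Point 4 held the highest group mean of all 10 members in the PBS arm, and of 7 without PBS replicate 1 of that point, when C1qb, Vsig4 and Marco were highest at point 3. The PBS sum of point 4 averaged 184 FPKM over its other 2 libraries (172 and 197 FPKM). The limma F test over points called 0 of 10 members in insulin livers, where 13.3% of all genes passed, and 0 of 10 in PBS livers, where 3.27% passed. Before adjustment 2 members in insulin and 7 in PBS livers were under 0.05. Without PBS replicate 1 of point 4 these counts were 4 in insulin and 1 in PBS livers. The shares of all genes before adjustment were not computed. Cd5l came nearest in insulin livers (limma adjusted p = 0.0882). Its group means were 31.6, 27.7, 26.8, 23.6 and 17.9 FPKM at points 1 to 5. Without PBS replicate 1 of point 4, which changes the shared estimate of the spread, its limma adjusted p was 0.0112. Cd5l was then the 1 member called in insulin livers, against 1739 of 13589 genes.

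Ratios between members within a library do not depend on the library's scaling factor. Pooled over points, C1qb over C1qa averaged 0.886 ± 0.085 (SD, n = 15) in insulin and 0.926 ± 0.129 in PBS libraries, and C1qc over C1qa averaged 0.659 ± 0.094 in insulin and 0.674 ± 0.075 in PBS libraries. The sum of the 3 chains over Vsig4 averaged 3.22 ± 0.389 in insulin libraries (2.73 to 4.18) and 4.35 ± 0.787 in PBS libraries (2.90 to 5.45). Over Clec4f it averaged 1.92 ± 0.158 in insulin and 2.30 ± 0.348 in PBS libraries, and over Csf1r 6.80 ± 0.895 in insulin and 7.18 ± 0.745 in PBS libraries. Cd5l over Vsig4 averaged 1.63 ± 0.172 in insulin and 2.03 ± 0.339 in PBS libraries. Pooled over points, the ranges of the arms overlapped for each of these ratios, which were chosen after the levels were seen and carry no test. Within points they did not always overlap. C1qb over C1qa was 0.707 to 0.819 with insulin and 0.912 to 0.951 with PBS at point 4, and overlapped at the other points. The summed chains over Vsig4 and over Clec4f lay wholly lower with insulin at points 3 and 5, and Cd5l over Vsig4 at points 1, 4 and 5. These ratios overlapped at the other points. Cd5l over C1qa lay wholly higher with insulin at point 3 (1.312 to 1.375, against 1.136 to 1.310). Wholly lower at point 3 were also Csf1r over Vsig4 and the chains over Adgre1 and over Timd4, the last at point 4 too. No share over other gene pairs was computed. Such a ratio shows unequal levels within a library and not which of its genes differs.

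**Figure D4:**
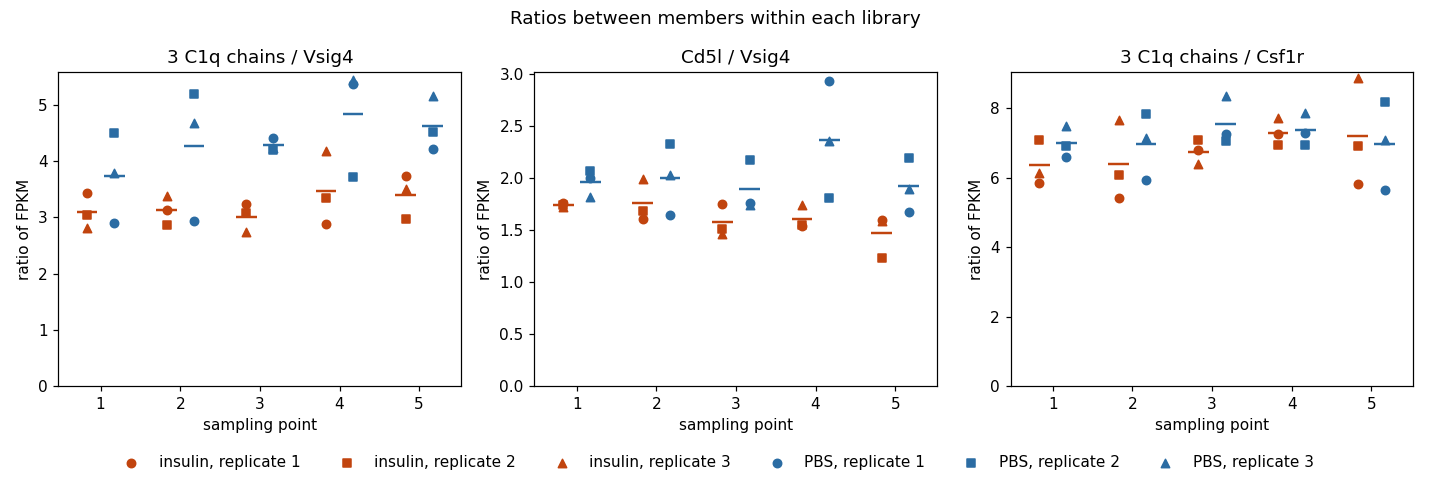
Ratios of FPKM within each library by sampling point, insulin (orange) left of PBS (blue), with lines at group means. The summed C1q chains over Vsig4 range from 2.73 to 4.18 with insulin and from 2.90 to 5.45 with PBS, while their ratio to Csf1r overlaps almost entirely.

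The 10 genes varied together among libraries of the same group. Over the 30 libraries, the correlation of deviations from the group mean had a median r of 0.67 over the 45 pairs of members (0.35 to 0.81), and a median of 0.52 (0.04 to 0.80) without PBS replicate 1 of point 4. The libraries share depth and scaling, so these r values are descriptions. The non-member genes whose deviations were most like the mean of the 10 were Ptprc (r = 0.88), the CD45 antigen of all leukocytes, Mpeg1 (0.87), a pore-forming protein of macrophages, and Siglece (0.87), a sialic acid receptor of myeloid cells. Cd300e, Filip1l, Acer2, Ctss, Siglec1, Itgb2, Dse, Cyth4 and Cybb followed with r between 0.81 and 0.86. This order rests on the high PBS library, without which the r of these 12 genes lay between 0.59 and 0.75. The 12 non-members most alike without it shared 0 genes with those and were Clptm1l (r = 0.82), Gm16580, Nup54, Gm13622, Serping1, Vipr1, 0610005C13Rik, H13, Lgmn, Clu, Pabpc4 and Hpx (0.76), among which Clu and Hpx encode plasma proteins made by hepatocytes. Over the 10 group means the most alike genes were Pdzk1 (r = 0.95), Col14a1 (0.95) and Fgl2 (0.94), followed by Maged2, Eif4g3, Txn1, Cmas, Folr2, Msn, Ncf1, Axl and Fam234a with r between 0.92 and 0.94. These means include the high library.

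Treatment and sequencing lane cannot be told apart in these data, since the insulin libraries carry lanes 1 and 2 and the PBS libraries lanes 3, 4 and 5. C1qa averaged 20.4 FPKM on lane 1 (n = 6) and 18.9 on lane 2 (n = 9), both insulin, and 29.0, 28.1 and 26.0 FPKM on lanes 3, 4 and 5 (n = 5 each), all PBS. Without the high library, lane 3 averaged 22.9 FPKM for C1qa and 21.7 FPKM for C1qb, still above the 17.6 and 17.1 FPKM of C1qb on the insulin lanes 1 and 2. Within the insulin arm, lanes 1 and 2 held means of 25.8 and 25.4 FPKM for Cd5l, 4.77 and 4.70 for Adgre1, 4.98 ± 2.90 and 3.56 ± 1.42 (SD) for Marco, and 3.26 ± 0.749 and 2.38 ± 0.347 (SD) for Timd4, and differences between these lanes were not tested. Levels of mitochondrial ribosomal RNA also moved with treatment, and mt-Rnr2 had a median of 975 FPKM (441 to 2264) in insulin and 410 FPKM (313 to 854) in PBS livers, a difference of 1.22 ± 0.26 (limma adjusted p = 0.000576). Its part in the members' differences was not tested.

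Other genes of the macrophage lineage were read from lists of marker and pathway genes. Of 34 further Kupffer cell and tissue macrophage genes tested, 15 were lower and 2 higher with insulin on average (37.6% and 7.89% of all genes). At point 4, 12 were lower and 1 higher (10.4% and 2.82% of all genes). Without PBS replicate 1 of that point, 2 were lower and 1 higher there, against 777 lower and 285 higher of 13589 genes. That share of lower genes was near the share among all genes. With median-ratio scaling the counts were 9 lower and 3 higher on average (2739 and 2750 of all genes) and 6 lower and 2 higher at point 4 (801 and 943 of all genes). Spi1 had a median of 1.04 FPKM in insulin and 2.17 FPKM in PBS livers, an averaged difference of -0.56 ± 0.12 (limma adjusted p = 0.000625). Cd68, a lysosomal glycoprotein, had medians of 2.67 FPKM with insulin and 4.44 FPKM with PBS (-0.51 ± 0.09, adjusted p = 0.000144, limma), and Nr1h3, which hepatocytes also express, 26.5 FPKM with insulin and 36.4 FPKM with PBS (-0.39 ± 0.07). Id3 had medians of 8.27 FPKM with insulin and 13.8 FPKM with PBS (-0.50 ± 0.13). Cd38 was higher with insulin on average, and Hmox1, the heme oxygenase of macrophages that is also induced in hepatocytes, was higher at point 4 (1.24 ± 0.38, adjusted p = 0.0321, limma).

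A list of ligands of the Csf1r receptor and signalling genes of macrophages, which also holds chains of the GM-CSF receptor, had 8 tested genes. Of these 5 were lower and 0 higher with insulin on average, and 2 were lower and 0 higher with median-ratio scaling. Among all genes 37.6% were lower and 7.89% higher on average, and with median-ratio scaling 2739 of 13589 were lower and 2750 higher. Csf1, its ligand, had a median of 1.06 FPKM in insulin and 1.35 FPKM in PBS livers (-0.26 ± 0.09, limma adjusted p = 0.0166). Il34, the other ligand, had a median of 0.725 FPKM with insulin and 1.01 FPKM with PBS and did not pass (-0.13 ± 0.13, adjusted p = 0.433, limma). The kinase Lyn and the GM-CSF receptor chains Csf2ra and Csf2rb were lower on average as well as at point 4. With median-ratio scaling only Csf2ra and Csf2rb of the 8 were lower on average. Without PBS replicate 1 of point 4, the list's calls at that point numbered 2 in place of 4, Csf2ra (-0.85 ± 0.22, limma adjusted p = 0.0251) and Csf2rb (-0.60 ± 0.15, adjusted p = 0.0159), while Lyn did not pass (-0.26 ± 0.12, adjusted p = 0.160, limma). Of all 13589 genes, 777 were lower at point 4 without that library, in place of 1416. Among 12 further complement genes, made mostly by hepatocytes, 7 were lower and 0 higher on average, against the same 37.6% and 7.89% of all genes. They were led by C1rl (-0.47 ± 0.07), Serping1, the inhibitor of the C1 complex (-0.33 ± 0.05), and C1ra, the protease that joins C1q in that complex (-0.27 ± 0.05). With median-ratio scaling 2 of the 12 were lower and 1 higher.

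Markers of other cell types of the lobe were read in the same comparison. Among all genes 37.6% were lower and 7.89% higher on average, and with median-ratio scaling 2739 of 13589 were lower and 2750 higher. Of 15 sinusoidal endothelial markers 11 were lower and 0 higher with insulin on average, Gpr182 among them (-0.54 ± 0.05), and of 14 stellate cell markers 11 were lower and 0 higher. The summed level of the endothelial markers ranged from 81.4 to 126.9 FPKM with insulin and from 112.1 to 150.4 FPKM with PBS, and that of the stellate markers from 195.5 to 297.8 FPKM with insulin and from 250.6 to 320.8 FPKM with PBS. With median-ratio scaling 6 of 15 endothelial and 6 of 14 stellate markers were lower, and 0 and 1 were higher. Of 10 pan-leukocyte genes 3 were lower and 0 higher, with sums of 40.9 to 63.2 FPKM with insulin and 51.3 to 95.015 FPKM with PBS, where the highest was PBS replicate 1 of point 4 and the next 64.8 FPKM. Without that library 2 were lower, against 4911 of 13589 genes. Of 10 hepatocyte markers 4 were lower and 1 higher, with sums of 40085 to 56805 FPKM with insulin and 45790 to 59521 FPKM with PBS, and with median-ratio scaling 3 were lower and 3 higher. The shares of pan-leukocyte and hepatocyte genes that were lower were near that of all genes. The part of other cell types in the members' differences was not tested.

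Most markers of monocytes and lymphocytes were low. Of 12 markers of monocytes and recruited macrophages 2 passed the filter, Plac8 with a median of 4.32 FPKM and Cd9 with 8.84 FPKM, which did not pass on average (limma adjusted p = 0.488 and 0.637). Chil3, Gpnmb and F13a1 had a median of 0 FPKM. The summed level of those 12 ranged from 6.3 to 17.5 FPKM with insulin and from 9.5 to 30.7 FPKM with PBS, the highest being PBS replicate 1 of point 4, with 20.6 FPKM the next. The 12 T and NK cell markers summed to 0.6 to 3.9 FPKM with insulin and 0.5 to 8.3 FPKM with PBS, or at most 3.58 FPKM without the same library, and the 7 B cell markers to at most 1.7 FPKM with insulin and 2.4 FPKM with PBS. Cd3d and Cd79a, which define T and B cells, had a median of 0 FPKM.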

How the data were processed

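Poly(A) RNA of the left liver lobe was sequenced from 15 insulin and 15 PBS libraries with a directional kit, per the labels' protocols. Per the submitters' processing notes, the authors used HISAT2 2.1.0, SAMtools 1.9, StringTie 2.0.3 and build GRCm38 (mm10). The annotation, like the strand setting, is not given in the sources used here. Deposited levels are FPKM, which the authors normalized for transcript length and library size, so no count test was run. Cells without a value (32.2%) were set to 0, and no member had such a cell. Depth was estimated from the steps between low values of genes with 1 transcript; 37.8% to 44.7% of values were whole within 0.05, so it is rough and no reads were recovered.

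Treatment, replicate and point were read from the titles and lanes from the descriptions. Genes reaching 1 FPKM in 3 or more libraries were fitted as log2(FPKM + 1) with limma 3.58.1 in R 4.3.3 (10 group means, intensity trend, 20 residual degrees of freedom, two-sided tests, Benjamini-Hochberg over 13589 genes, threshold 0.05). The pseudocount of 1 understates the changes of low genes. The named genes were all 10 members, up to 4 genes per companion list with the smallest adjusted p, those that passed where a member passed, Csf1 and Il34, and the 12 genes most alike. Markers with a median of 0 FPKM were named after their values were seen. List counts include genes that are not reported here by name. Members and lists were chosen with earlier results of these data known. The labels call the triplicates biological; where libraries shared an animal, p-values would measure a smaller spread. Within groups r was 0.966 to 0.983 over genes, and no library was counted as a repeat. The fit was tested on simulated data. Alternatives were a pseudocount of 0.1, no filter, a mean of at least 5 FPKM, scaling by median ratios, quantile normalization, a block for the replicate number, a random lane effect, a fit of the 6 libraries of a point, and each replicate left out. Positions are from GENCODE M21, which held 29066 of the 29117 identifiers. Reads that C1q or other members share with overlapping genes were split by the authors' quantification.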

Additional observations from a re-analysis of the deposited data

How the results depend on the processing

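No member changed sign with a call under any alternative, and of the gene-level results 1171 stayed on their side of the threshold, 44 lost a call and 7 gained one. Most of the 1171 had no call to lose. The 44 losses all fell on the 6 calls at point 4, the 2 at point 5 and the 6 averaged, each fitted under several alternatives. At point 3, where 0 members passed, 1 was lower with a mean of at least 5 FPKM, against 808 of 6707 genes. The replicate block also gave 1, against 1578 of 13589 genes. Fitting that point's 6 libraries by themselves gave 1 as well, against 823 genes. So did a fit without PBS replicate 1 of point 4 (chosen after seeing the data), against 876 genes. In these fits the count of 1 member was near or little above the share of all genes. Leaving out a replicate of the point gave 0 to 1, against 420 to 633 genes. The 6 members lower at point 4 became 0 with only the 6 libraries of the point, where 55 of 13589 genes were lower. They became 2 to 7 when a replicate was left out, against 455 to 2012 of 13589 genes. The 7th was Vsig4 without PBS replicate 3 (limma adjusted p = 0.0436). The 2 lower at point 5 became 0 with no filter, against 1686 of 29117 genes. They also became 0 with median-ratio scaling, quantile normalization and only the 6 libraries, against 1085, 1077 and 972 of 13589 genes. When a replicate was left out they became 0 to 1, against 854 to 2237 genes. Averaged over the points, leaving out a replicate number gave 5 to 6 members lower, against 3598 to 5166 of 13589 genes. In insulin livers, variation among points was called for 1 member, Cd5l, in place of 0 without PBS replicate 1 of point 4. With the replicate block 6 members were lower at point 4, 2 at point 5 and 6 on average. Among all 13589 genes 1889, 2708 and 5333 were lower in these comparisons. The count of 2 members at point 5 was near the share of all genes. Across the arms the replicate numbers showed no pairing. Same-numbered insulin and PBS libraries had r of -0.11 to 0.12 between their deviations, and 1 of 15 pairs was above 0.1. Of 15 insulin libraries 5 correlated best with their own number. Within the arms, replicate number can still carry shared variation: the replicate block called 2344 genes at point 4 in place of 1799. In the PBS arm each replicate number had its own lane. The consensus correlation within lanes was 0.03. Causes of these changes were not tested. Without raw counts, precision at low levels (Timd4, Marco) rests on the rough depth estimate.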
